A study of Rattus norvegicus with 7 samples.

Results

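The genes described here encode the subunits of the NMDA receptor (Grin1, Grin2a to Grin2d, Grin3a and Grin3b) and 3 proteins that hold glutamate receptors in the postsynaptic density (Dlg4, Homer1 and Homer2). Their probes were those whose accession, without its version, is a RefSeq transcript of one of these 10 rat genes, and every such probe was used. This gave 12 probes for 8 of the 10 genes, out of 33849 transcript probes on the array, of which 7207 could be named, for 6046 genes. Grin1 had 3 probes, Grin2b and Grin2c had 2 each, and Grin2a, Grin2d, Grin3b, Homer1 and Homer2 had 1 each. Grin3a and Dlg4 were not analysed here.

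Whole brain RNA was measured in adult male rats of a pair of lines bred selectively from Wistar stock, the alcohol-preferring line (P, 4 rats, numbered 1 to 4) and the alcohol non-preferring line (NP, 3 rats, numbered 2 to 4). All rats were alcohol-naive and doubly housed, and each array held the RNA of 1 rat. Rats of a line share their breeding history as well as their drinking preference, which limits them as a model of preference alone. Setting P against NP asks how brain RNA differs between the lines in rats that never drank alcohol.

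NMDA receptors are glutamate-gated cation channels that open only when glutamate and a co-agonist are bound and the membrane is depolarised, and the calcium they admit starts synaptic plasticity. Each channel joins the obligatory Grin1 subunit, which binds glycine or D-serine, to Grin2 subunits, which bind glutamate and set how long the channel stays open, or to Grin3 subunits, which bind glycine. Ethanol inhibits these channels, which is why they are studied in lines bred for drinking. Beneath the membrane, Dlg4 (PSD-95) anchors Grin2 subunits, while Homer proteins tie group I metabotropic glutamate receptors to Shank scaffolds and to calcium stores.

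The promoters of Grin1, Grin2c, Grin2d and Homer1 are shown because these are the genes whose probes divided the P rats into pairs, the first 3 genes one way and Homer1 the other. Each is the RefSeq sequence of assembly GRCr8 from 250 bases before to 50 after the start of the gene, read 5′ to 3′ on the strand of the gene, with capitals marking motif matches. Grin1 lies at chr3:28528705-28529004 on the minus strand, Grin2c at chr10:101005089-101005388 on the minus strand, Grin2d at chr1:105481187-105481486 on the minus strand and Homer1 at chr2:26278762-26279061 on the plus strand.
Grin1: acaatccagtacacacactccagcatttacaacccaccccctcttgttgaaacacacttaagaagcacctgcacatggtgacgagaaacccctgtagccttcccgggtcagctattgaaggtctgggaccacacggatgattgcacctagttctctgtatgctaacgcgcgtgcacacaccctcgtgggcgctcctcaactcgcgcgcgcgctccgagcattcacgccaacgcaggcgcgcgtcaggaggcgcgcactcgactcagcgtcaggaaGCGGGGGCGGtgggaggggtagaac
Grin2c: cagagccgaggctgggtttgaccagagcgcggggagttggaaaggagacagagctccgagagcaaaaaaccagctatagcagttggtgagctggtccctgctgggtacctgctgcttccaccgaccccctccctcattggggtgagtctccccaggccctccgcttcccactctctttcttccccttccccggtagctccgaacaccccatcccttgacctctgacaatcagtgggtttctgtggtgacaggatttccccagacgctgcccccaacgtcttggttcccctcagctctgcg
Grin2d: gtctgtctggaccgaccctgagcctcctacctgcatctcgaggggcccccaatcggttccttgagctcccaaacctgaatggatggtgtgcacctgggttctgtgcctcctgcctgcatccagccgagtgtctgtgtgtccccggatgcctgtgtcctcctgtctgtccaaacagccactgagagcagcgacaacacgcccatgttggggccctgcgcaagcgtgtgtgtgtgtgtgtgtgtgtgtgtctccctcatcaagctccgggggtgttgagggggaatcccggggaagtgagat
Homer1: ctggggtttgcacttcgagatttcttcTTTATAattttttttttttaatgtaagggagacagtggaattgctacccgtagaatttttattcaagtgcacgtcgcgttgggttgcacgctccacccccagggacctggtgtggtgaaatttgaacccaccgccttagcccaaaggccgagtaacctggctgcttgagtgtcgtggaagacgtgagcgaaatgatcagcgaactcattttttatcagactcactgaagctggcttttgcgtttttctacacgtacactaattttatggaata
The windows of Grin1, Grin2c and Grin2d held 59.7%, 60.3% and 60.7% G or C, against 44.7% for Homer1 and a median of 51.7% over 33469 rat promoters in the same table. Both strands were searched for the GC box GGGCGG, the Egr element GCGNGGGCG, the TATA box TATAAA and the cAMP response element TGACGTCA, which occur in 33.1%, 4.98%, 14.2% and 1.83% of those promoters. The Grin1 window held a GC box match at bases 280 to 285 that overlaps an Egr element match at bases 276 to 284, counted from the first base of the window. Both lie after the start of the gene. The Homer1 window held a TATA box match on the opposite strand at bases 28 to 33, far upstream at -223 to -218 from the start. These are matches of letters, and whether any of them works as an element was not tested. No match was found in the Grin2c or Grin2d windows, nor any of the cAMP response element in the 4 windows. A promoter was available for 6 of the 10 genes, with 58.7% G or C for Grin3a and 68.7% for Dlg4, which are not shown. None was available for Grin2a, Grin2b, Grin3b or Homer2. The windows therefore cannot be set against measured genes whose probes did not divide the P rats, and a part of promoter content in that division was not tested.

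All values below are log2 signals after background correction and quantile normalization, so 1 unit is a doubling of signal, and each difference is the P mean minus the NP mean. The share of transcript probes above background was 77.9 to 81.6% on P arrays and 81.5 to 85.9% on NP arrays. Median log2 signals of negative controls were 6.19 to 6.33 prior to scaling between arrays. Pairs of arrays correlated at r of 0.954 to 0.988 over probes. The file headers carry 3 dates, of a kind that is not stated: P 1, P 2, NP 2 and NP 3 share date 1, NP 4 has date 2, and P 3 and P 4 have date 3. Results are therefore also given within date 1, the only date with both lines. All 12 probes lay above background on every array, except the Grin2b probe GE1205376 on NP 4.

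No probe of these genes was called different between the lines. With limma and Benjamini-Hochberg adjustment over the 29003 probes tested, 0 of the 12 had an adjusted p under 0.05, and 0 of 12 had an unadjusted p under 0.05. Over all probes 84 were called, or 0.290%, and 11.5% had an unadjusted p under 0.05. The P and NP values overlapped for all 12 probes, while the lines did not overlap for 13.3% of probes measured on all arrays. The 12 differences had a median of 0.04 and a median size of 0.07, against 0.01 and 0.14 over all tested probes. The outermost ends of their 95% intervals were folds of 0.59 (Grin1 GE22164) and 1.88 (Grin2b GE1205376). No single probe spanned both, and that of Grin2a ran from 0.82 to 1.18. Each probe's own interval holds the changes that 4 against 3 arrays could not exclude. In whole brain, fewer cells of a type and less RNA per cell cannot be told apart.

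**Figure D1:**
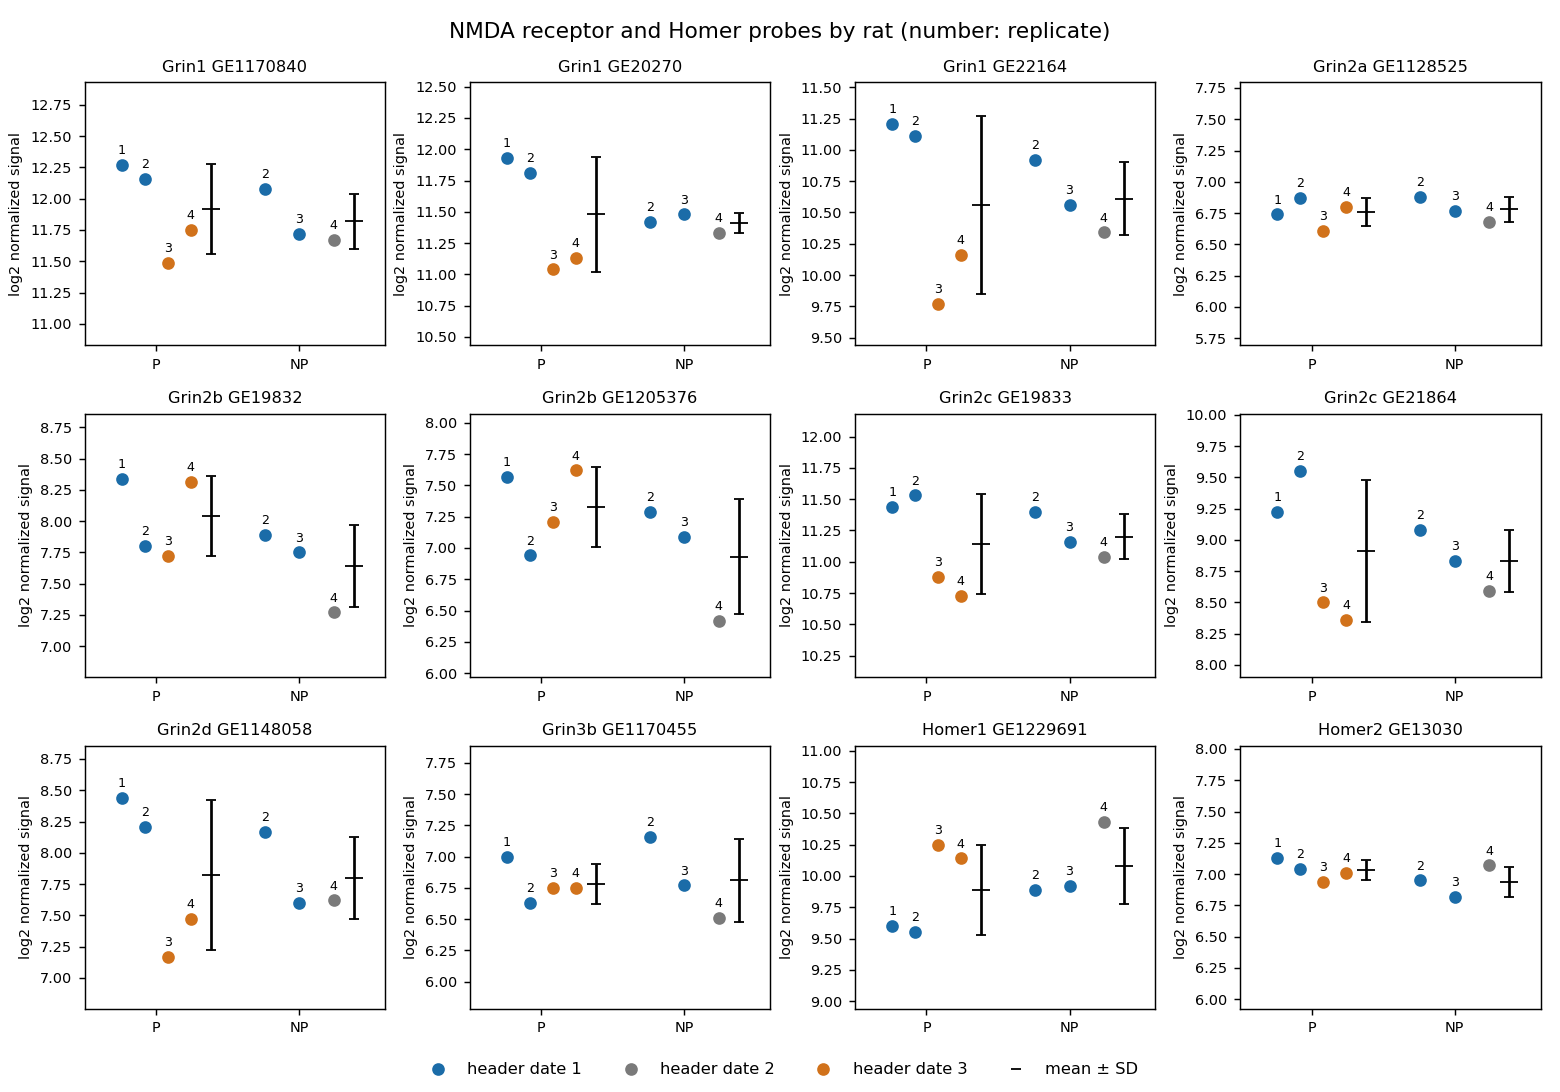
Log2 normalized signal (vertical axis) of the 12 probes, 1 panel per probe, in each P rat (left) and each NP rat (right), with the mean and SD of each line. The P and NP values overlap in every panel.

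Grin1 encodes the subunit that every NMDA receptor needs. Its probe GE1170840 had signals of 12.27, 12.16, 11.49 and 11.75 in P 1 to P 4, against 12.08, 11.72 and 11.67 in NP 2 to NP 4. The P rats fell into a high pair (P 1 and P 2) and a lower pair, and the NP rats lay within the P range. The line means were 11.92 ± 0.36 in P and 11.82 ± 0.22 in NP (SD, n = 4 and 3), a difference of 0.09 ± 0.20 (SE, adjusted p = 0.866, limma).

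The other Grin1 probes divided the P rats in the same way. GE20270 had signals of 11.93, 11.81, 11.04 and 11.13 in P rats, against 11.42, 11.48 and 11.33 in NP rats, and a difference of 0.06 ± 0.22 (SE, adjusted p = 0.922, limma). GE22164 had 11.21, 11.11, 9.77 and 10.16 in P rats, against 10.92, 10.56 and 10.34 in NP rats, and a difference of -0.04 ± 0.32 (adjusted p = 0.968). For both probes every NP value lay between the high and the low pair of P rats, so the P mean came close to the NP mean while the P spread (SD of 0.46 and 0.71) exceeded the NP spread (SD of 0.08 and 0.29). The P rats span header dates 1 and 3, and the NP rats dates 1 and 2. Line and date cannot be told apart in these spreads.

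Grin2a and Grin2b encode the main Grin2 subunits of the forebrain, Grin2b being the more abundant early in life. Grin2a, read by the dim probe GE1128525, had signals of 6.74, 6.87, 6.61 and 6.80 in P rats, against 6.88, 6.77 and 6.68 in NP rats. The lines were 6.76 ± 0.11 in P and 6.78 ± 0.10 in NP (SD), and the 95% interval of the difference ran from -0.28 to 0.24 (adjusted p = 0.957, limma). This was among the narrowest of the 12 intervals. Background-subtracted intensities of this probe were only 50 to 73, so a narrow interval need not mean steady expression.

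Grin2b had the largest line difference of the genes measured, and it missed the threshold. GE19832 had signals of 8.34, 7.80, 7.72 and 8.31 in P rats, against 7.89, 7.75 and 7.27 in NP rats. GE1205376 had 7.57, 6.94, 7.21 and 7.62 in P rats, against 7.29, 7.09 and 6.42 in NP rats. In both probes P 1 and P 4 were highest and NP 4 was lowest, a different pattern from that of Grin1. The difference was 0.40 ± 0.20 by GE19832 (95% interval -0.04 to 0.85, adjusted p = 0.457) and 0.40 ± 0.23 by GE1205376 (95% interval -0.10 to 0.91, adjusted p = 0.496, limma). Without NP 4 alone the differences were 0.22 and 0.15. Within date 1, which leaves out P 3, P 4 and NP 4, the differences were 0.25 ± 0.18 (adjusted p = 0.397) and 0.07 ± 0.20 (SE, 2 P and 2 NP rats).

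Neuron markers showed no common pattern beside Grin2b. The summed linear signal of 6 neuron marker genes measured on all arrays was 19300, 17300, 16400 and 18300 in P rats, against 18400, 17100 and 14400 in NP rats. P 1 was highest and NP 4 lowest in this sum, as in GE19832, but bright probes carry it and single markers differed. Uchl1 was lowest in NP 4 (11.92), whereas Snap25 was highest there (6.60), and Nefm was low in P 1 (10.04). Of the 12 neuron markers listed, 7 had a tested probe, Nefl among them also in the wider list below. Of the 7, 0 were called and 0 had an unadjusted p under 0.05 (limma), against 0.290% and 11.5% of all probes. Their differences were positive in 3 and negative in 4, with a median of -0.09. Of the 6 fitted within date 1, limma called 1, where 6.40% of all probes were called. It was Nefm, lower in P (-0.81, adjusted p = 0.0298). Syn1, Nefl, Nefm, Uchl1 and Gap43 were above background on all 7 arrays, but Snap25 and Stmn2 on 3. The part of neuron content in the Grin2b values was not tested.

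Grin2c, the subunit known from cerebellar granule cells, was read by 2 probes that gave all 7 rats the same order. GE19833 had signals of 11.44, 11.53, 10.88 and 10.73 in P rats, against 11.40, 11.16 and 11.04 in NP rats. GE21864 had 9.22, 9.55, 8.50 and 8.36 in P rats, against 9.08, 8.83 and 8.59 in NP rats. All NP values again lay between those of P 1 and P 2 and those of P 3 and P 4. The line differences were -0.06 ± 0.20 (adjusted p = 0.93) and 0.07 ± 0.27 (SE, adjusted p = 0.929, limma).

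The summed linear signal of 5 cerebellar marker genes was 11400, 8880, 10500 and 9870 in P rats, against 11700, 11700 and 14500 in NP rats. These sums did not overlap between the lines, as 13.3% of all probes did not, and the bright Pcp4 probe makes up most of them (log2 signals of 13.07, 12.64, 12.92 and 12.81 in P rats, against 13.10, 13.14 and 13.54 in NP rats). The markers did not differ one way: Pcp4 had a difference of -0.40 and Zic1 one of 0.37, and over the 6 tested of 8 listed the differences were positive in 3 and negative in 3, with a median of -0.03. Of the 6, 0 were called and 2 had an unadjusted p under 0.05 (limma), against 0.290% and 11.5% of all probes. Within date 1, limma called 2 of the 6, where 6.40% of all probes were called. They were Calb1, lower in P (-0.73, adjusted p = 0.0464), and Zic1, higher in P (0.56, adjusted p = 0.0476). The part of tissue content in the Grin2c values was not tested.

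Grin2d, a subunit of the diencephalon, brainstem and inhibitory interneurons, had signals of 8.44, 8.21, 7.17 and 7.47 in P rats, against 8.17, 7.60 and 7.62 in NP rats. P 1 and P 2 exceeded every NP rat, and P 3 and P 4 lay under every NP rat. The means were 7.82 ± 0.60 in P and 7.80 ± 0.33 in NP (SD), a difference of 0.03 ± 0.29 (SE, adjusted p = 0.979, limma). Grin3b, known from motor neurons, had signals of 7.00, 6.63, 6.75 and 6.75 in P rats, against 7.16, 6.77 and 6.51 in NP rats. Both the highest and the lowest value came from NP rats, and the difference was -0.03 ± 0.16 (SE, adjusted p = 0.953). The Grin3b probe is dim, with background-subtracted intensities of 38 to 100, so a difference near 0 need not mean steady expression.

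Of the scaffolds, Homer1, whose short form is induced by neuronal activity, ran opposite to Grin1. It had signals of 9.60, 9.55, 10.25 and 10.14 in P rats, against 9.89, 9.92 and 10.43 in NP rats. P 1 and P 2 were the lowest rats and NP 4 the highest. The line means were 9.89 ± 0.36 in P and 10.08 ± 0.30 in NP (SD), a difference of -0.20 ± 0.21 (SE, adjusted p = 0.716, limma), or -0.02 without NP 4. The files do not say which Homer1 form the probe reads.

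Homer2, a long-form scaffold, had signals of 7.13, 7.04, 6.94 and 7.01 in P rats, against 6.95, 6.82 and 7.07 in NP rats. All 7 rats lay close together, with means of 7.03 ± 0.08 in P and 6.94 ± 0.12 in NP (SD). The probe is dim, with background-subtracted intensities of 59 to 92, so this closeness need not mean steady expression. The difference was 0.08 ± 0.12 (95% interval -0.17 to 0.34, adjusted p = 0.785, limma).

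Within date 1 most differences lay farther from 0, and none was called. There P 1 and P 2 were higher than NP 2 and NP 3 on average by 0.32 ± 0.15, 0.41 ± 0.13 and 0.42 ± 0.15 for the Grin1 probes (SE, adjusted p = 0.208, 0.0808 and 0.116). The Grin2c probes differed by 0.21 ± 0.14 and 0.43 ± 0.16 (adjusted p = 0.355 and 0.124), Grin2d by 0.44 ± 0.19 (adjusted p = 0.173) and Homer1 by -0.33 ± 0.12 (adjusted p = 0.13). Of the 12 probes 0 were called by limma and 5 had an unadjusted p under 0.05, against 6.40% called and 27.0% at that unadjusted p over all probes. With the date as a block in the fit of all arrays, 0 of the 12 were called, against 5.72% of all probes. Dates 2 and 3 each hold rats of 1 line only. The block fit therefore gave the same 12 differences as date 1 alone and is no separate check.

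**Figure D2:**
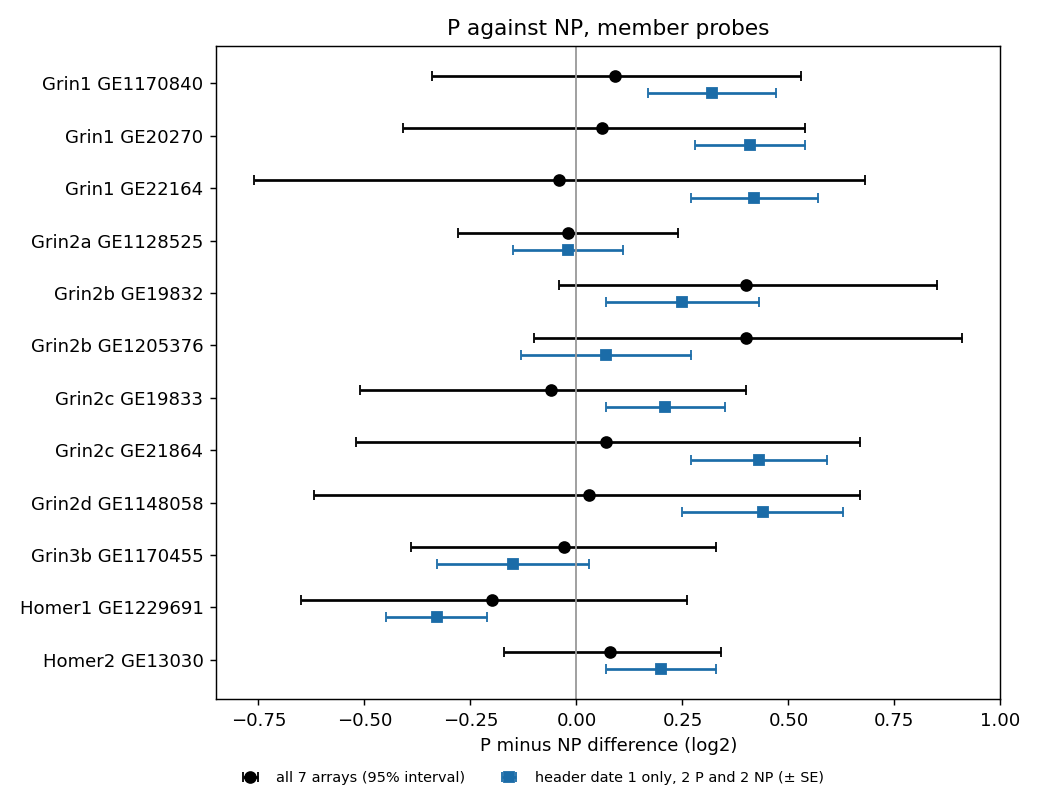
P minus NP difference in log2 signal (horizontal axis) for each of the 12 probes, from all 7 arrays (black, with 95% interval) and from the 2 P and 2 NP arrays of date 1 (blue, with SE). Every black interval includes 0, and the blue Grin1, Grin2c and Grin2d values lie to the right of the black ones.

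The largest differences in these genes lay among the P rats. This comparison, of P 1 and P 2 with P 3 and P 4, was chosen after the values were seen. The header date and the rats of each pair cannot be told apart in it. It called 7 of the 12 probes at an adjusted p under 0.05 (limma), against 13.9% of all probes. Of these 6 were higher in P 1 and P 2, against 6.35% of all probes called in that direction, and 1 was lower, against 7.59%. The 7 were the 3 Grin1 probes, the 2 Grin2c probes and those of Grin2d and Homer1, so some genes count more than once. Because the pairs were picked from these same values, the counts and p-values describe the split and do not test it. The median size of the 12 differences was 0.61, against 0.22 over all probes.

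The Grin1 probes were 0.60 ± 0.15, 0.78 ± 0.14 and 1.19 ± 0.16 higher in P 1 and P 2 than in P 3 and P 4 (SE, adjusted p = 0.0287, 0.00865 and 0.00538), which is 1.51-fold to 2.29-fold. Grin2c was 0.69 ± 0.14 and 0.95 ± 0.16 higher (adjusted p = 0.0142 and 0.00716), and Grin2d 1.01 ± 0.16 higher, or 2.01-fold (adjusted p = 0.00654). Homer1 was lower by 0.62 on the log2 scale in P 1 and P 2 (adjusted p = 0.0194). The Grin2a, Grin2b, Grin3b and Homer2 probes were not called, their differences running from -0.15 for Grin2b GE1205376 to 0.11 for Homer2. Most of these were dimmer than the called probes. By mean signal among tested probes they lay at percentiles 26.8 (Grin2a), 28.1 (Grin3b), 34.8 (Homer2), 40.1 and 57.5 (Grin2b). The called probes lay at 56.2 (Grin2d) to 99.3 (Grin1 GE1170840). The part of signal level in which probes were called was not tested.

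These calls depend on the processing. They numbered 7 as well without background correction, with median scaling, with cyclic loess, with a variance trend, with probes above background on all 7 arrays and without P 4. Of the 12 probes 0 were called with plain background subtraction, 0 in the authors' log2 values (7 there once limma's variance prior was let to vary with signal), 0 without P 2, 2 without P 1 and 5 without P 3. The differences themselves kept their sign for all 7 probes under every alternative run, that of Grin1 GE22164 running from 1.00 to 1.39. For 5 of the 12 probes every NP value lay strictly between the pairs of P rats, a pattern noticed in these values that held for 6.91% of all probes.

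**Figure D3:**
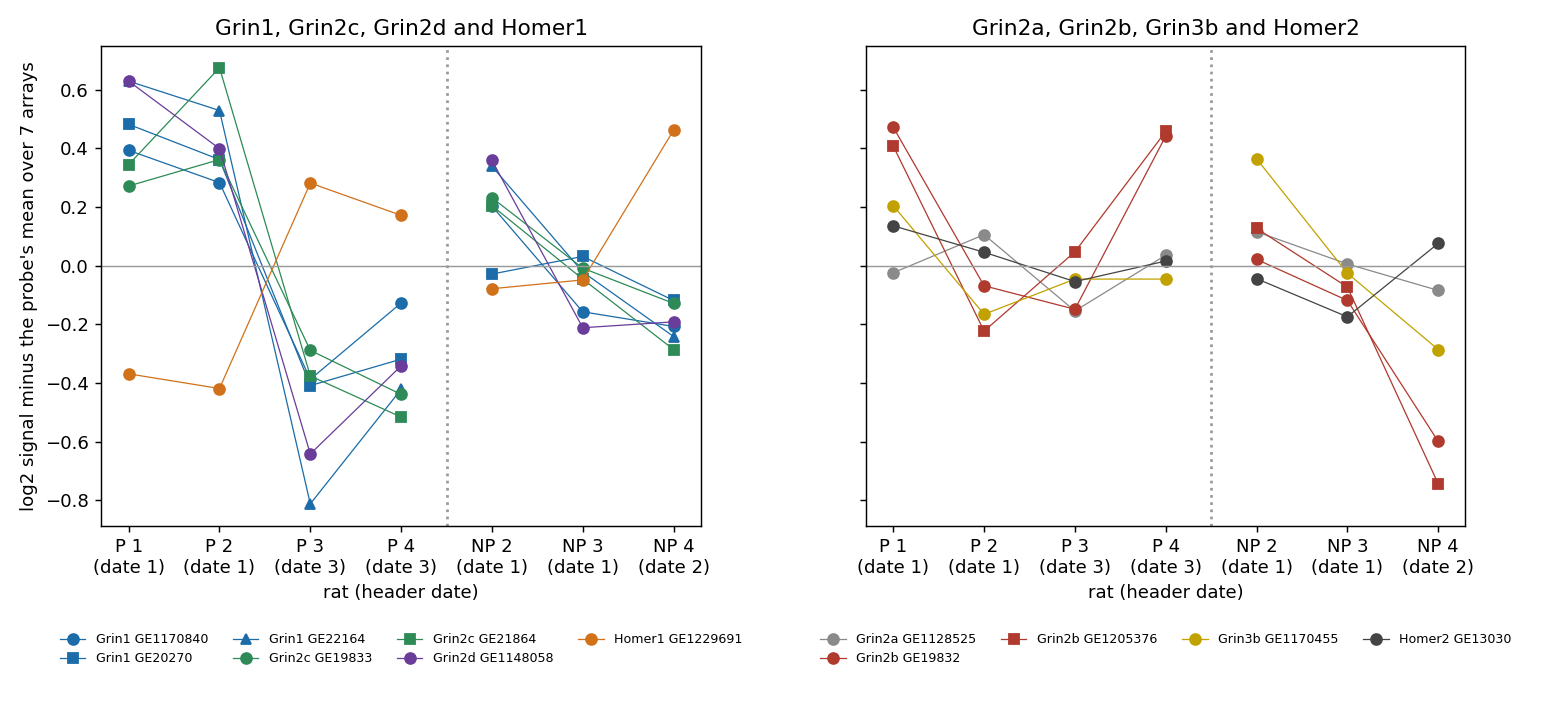
Log2 signal minus the mean of that probe over the 7 arrays (vertical axis) in each rat, P left of the dotted line and NP right of it, with the header date under each rat and thin lines joining values of 1 probe. The left panel holds Grin1, Grin2c and Grin2d, positive in P 1 and P 2 and negative in P 3 and P 4, and Homer1, which runs the other way; the right panel holds the other genes.

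Before scaling, the split of the P rats was present in some of these probes and not in others. Grin1 GE1170840 had background-subtracted intensities of 4293, 3546, 3728 and 3927 in P rats, against 4065, 2914 and 3545 in NP rats, with no gap between the P pairs. The median over all probes was 89.6, 69.5, 124 and 119 on those P arrays, against 106, 92.3 and 101 on the NP arrays. Relative to the rest of their arrays, then, P 3 and P 4 read lower for this probe. Grin1 GE22164 differed before scaling as well, with 2074, 1638, 1097 and 1309 in P rats, against 1810, 1305 and 1342 in NP rats. So did Homer1, with 660, 497, 1560 and 1290 in P rats, against 903, 823 and 1439 in NP rats. The part of scaling in the split was not tested.

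Where a gene had several probes they followed each other across the 7 rats. The 5 pairs of probes of a gene correlated at r of 0.88 to 0.97 (exact permutation test, two-sided, adjusted p = 0.00298 to 0.00853 over the 5 pairs) and at Spearman's rho of 0.82 to 1.00 (exact permutation, adjusted p = 0.00198 to 0.0341). With the 2 arrays farthest from the median left out, r was 0.62 to 0.99, the lowest being that of Grin1 GE1170840 with GE20270. Probes of 1 gene read the same RNA on the same arrays and are not independent measures of the line.

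Among 6267 named probes, those whose values were most like Grin1 GE1170840 over the 7 arrays were Cacna1g, a low-voltage-activated calcium channel (r = 0.996), Nptxr, the neuronal pentraxin receptor (r = 0.994), and Def8 (r = 0.990). Nptxr had signals of 11.53, 11.32, 10.16 and 10.57 in P rats, against 11.04, 10.57 and 10.43 in NP rats, so P 1 and P 2 were again high. Those most like Grin2b GE19832 were Gabra3, a GABA-A receptor subunit (r = 0.980), Eno1, a glycolytic enzyme (r = 0.980), and the chemokine Cxcl1 (r = 0.971). Gabra3 was nearly flat, with signals of 7.57 to 7.79, against 7.27 to 8.34 for Grin2b GE19832. The Cxcl1 signals of 6.04 to 6.46 lay near those of the negative controls. Such values describe 7 points that share arrays and scaling, with the highest r picked from many probes.

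A wider list of postsynaptic genes, with kinases, phosphatases, adhesion molecules and scaffolds, held 69 genes, of which 51 had a probe and 50 were tested. None of the 50 was called between the lines (0 by limma, against 0.290% of all probes), and 7 had an unadjusted p under 0.05, a share near the 11.5% of all probes. Their differences were positive in 30 and negative in 20, with a median of 0.06. The smallest p belonged to Camk2b, a subunit of the calcium-calmodulin kinase that NMDA receptors activate. Its signals were 7.61, 7.29, 7.46 and 7.78 in P rats, against 6.76, 6.86 and 6.85 in NP rats. The lines did not overlap, and the difference was 0.71 ± 0.14 (SE, adjusted p = 0.0912, limma).

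Camk2g, another subunit of that kinase, had a difference of 0.50 ± 0.15 (adjusted p = 0.305) from 2 NP rats, since its spot on NP 3 was missing. The scaffold Dlgap4, a binding partner of Dlg4, had 0.52 ± 0.16 (adjusted p = 0.309). Within date 1, limma called 2 of 49 genes, where 6.40% of all probes were called, so the count says nothing particular of the list. They were Camk2b higher in P (0.64 ± 0.15, adjusted p = 0.0389) and the calcineurin subunit Ppp3cb lower in P (-0.95 ± 0.15, adjusted p = 0.0150).

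Between the pairs of P rats, 9 of the 49 genes tested were called, not far from the 13.9% of all probes. Of these 8 were higher in P 1 and P 2, where 6.35% of all probes were called in that direction. They were Arc, Camk2d, Dlgap3, Grip2, Nlgn3, Ppp1r1b, Ppp1r9b and Shank3. The scaffold Dlgap3 differed by 1.21 ± 0.21 (SE, adjusted p = 0.00816) and Shank3, the scaffold that Homer binds, by 0.75 ± 0.14 (adjusted p = 0.00935, limma). Ppp3cb was lower, by -0.85 ± 0.16 (adjusted p = 0.00992).

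**Figure D4:**
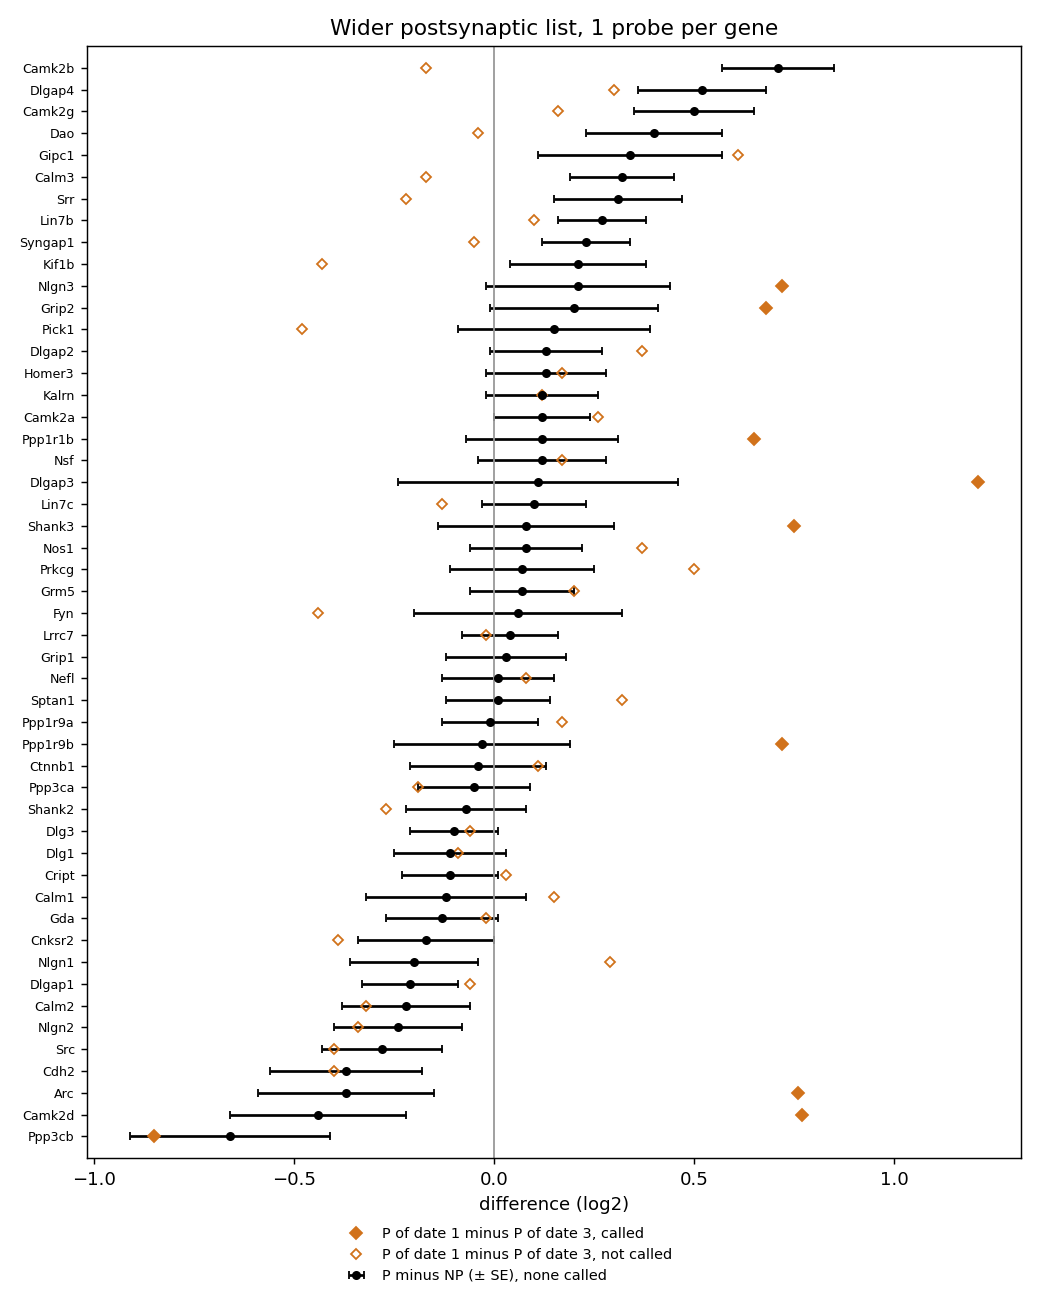
Difference in log2 signal (horizontal axis) for the 50 tested genes of the wider postsynaptic list, with 1 probe per gene, as P minus NP with its SE (black) and as P 1 and P 2 minus P 3 and P 4 (orange, filled where called). No black value was called, and 8 of the 9 filled diamonds lie right of 0.

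Markers of cell types and brain regions were also set side by side. Of 63 listed, 48 were tested between the lines and 0 were called (9 at an unadjusted p under 0.05, limma). Over all probes these shares were 0.290% and 11.5%. Within date 1, limma called 7 of 48 markers, against 6.40% of all probes. Zic1, Neurod2 and Adora2a were higher in P there, and Calb1, Nefm, Aif1 and Slc6a4 were lower. Between the pairs of P rats 9 of 46 were called, 6 higher in P 1 and P 2 (Aldh1l1, Gfap, Neurod2, Cd68, Syn1 and Sox10) and 3 lower (Slc6a4, Aif1 and Nefm), not far from the 13.9% of all probes called. The microglial markers Cd68 and Aif1 thus differed in opposite directions. The neuron markers did not move one way: Syn1, a synaptic vesicle protein, was 1.26 ± 0.18 higher in P 1 and P 2 (SE, adjusted p = 0.00558), and the neurofilament Nefm was lower, by -1.21 ± 0.15 (adjusted p = 0.00462). The summed neuron signal above overlapped between those pairs. The part of cell content in the split of the P rats was not tested.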

How the data were processed

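RNA of 1 rat was hybridized per 1-colour biotin array, after amplification from an oligo(dT) primer, per the labels. Sample titles gave each rat's line and number. The deposited scanner tables give spot, local background and background-subtracted intensity and a quality flag for each spot, per the file headers. The authors also deposited log2 values, used as an alternative; they follow the log2 of their scaled intensity (r of 0.9985 or higher), and their centring and any further adjustment stay unknown. Scanner software: not given in the sources used here; the same holds for the genome build.

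Intensities were corrected with normexp (offset 50) and quantile-normalized over transcript probes (limma 3.58.1, R 4.3.3; figures with matplotlib 3.10.9 in Python 3.11.15). Spots flagged masked, irregular, contaminated or excluded were set to missing. Probes had to exceed background on 3 or more of the 7 arrays (29008 did), and 29003 could be fitted. Lines were compared with lmFit and eBayes without a block, with Benjamini-Hochberg adjustment; a call is an adjusted p under 0.05. The fit was tested on simulated data, drawn independently for each array and without a date effect. That test says nothing of the header dates. Accessions were matched to RefSeq through the GRCr8 table, used for names and promoters only. No probe sequences were used. Intervals are limma's for the mean difference, in which the variation of rat, array and date is mixed, and the number of arrays limits precision.

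All member probes are named, with the 3 probes most like Grin1 GE1170840 and Grin2b GE19832; of the wider list, the 3 genes of smallest p and every called gene are named. Members and lists were chosen with earlier results of these data known. Alternatives were other background, scaling, filter, variance, date, replicate block and leave-one-out settings; the comparison within P was added after seeing the data.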

Additional observations from a re-analysis of the deposited data

How the results depend on the processing

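Between the lines, 0 of the 12 probes were called under every alternative run, except that leaving out P 3 and P 4 called 1 (Grin1 GE20270, 0.46, adjusted p = 0.0439). The count over all probes, 84, was 49 with probes above background on all arrays, 51 in the authors' values, 154 with array weights, 1655 with the date as a block, 1847 within date 1, 189 without P 1 and P 2, 3310 without P 3 and P 4, and 51 to 121 with 1 rat left out. The wider list gave 2 calls of 49 with the date block and within date 1, and 2 of 50 without P 1 and P 2. It gave 9 of 49 without P 3 and P 4, 1 of 50 with array weights, and 0 to 1 with 1 rat left out. Markers gave 5, 7 and 9 calls of 48 with the date block, within date 1 and without P 3 and P 4. Over all probes 5.72% were called with the date block and 6.40% within date 1. Without P 3 and P 4, 3310 of 28921 probes were called, and without P 1 and P 2, 189 of 28991.

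Differences near 0 changed sign with the setting, and the cause was not tested. They became 0.02 for Grin3b without background correction, 0.01 and 0.03 for Grin1 GE22164 with median scaling and array weights, and -0.03 for Grin2d with cyclic loess. With the date block and within date 1, which give the same line difference, Grin1 GE22164 had 0.42 and Grin2c GE19833 had 0.21. Without P 1 and P 2 the values were -0.21 (Grin1 GE1170840), -0.33 (GE20270), -0.40 (Grin2c GE21864), -0.48 (Grin2d) and 0.11 (Homer1), while Grin1 GE22164 and Grin2c GE19833 moved to -0.64 and -0.40. Without P 3 and P 4 they were 0.55 (Grin1 GE22164), 0.03 (Grin2a) and 0.29 (Grin2c GE19833). With 1 rat left out they ran from -0.02 to 0.24 (Grin1 GE1170840), -0.09 to 0.21 (GE20270), -0.26 to 0.22 (GE22164), -0.07 to 0.03 (Grin2a), -0.18 to 0.08 (Grin2c GE19833), -0.14 to 0.26 (GE21864), -0.18 to 0.24 (Grin2d), -0.18 to 0.14 (Grin3b) and -0.32 to -0.02 (Homer1, the last without NP 4). The Grin2b and Homer2 probes stayed positive under every alternative run, Grin2b GE19832 from 0.22 (without NP 4) to 0.53 and GE1205376 from 0.07 (within date 1) to 0.68 (plain subtraction), with 0.15 without NP 4.

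The titles do not say whether the replicate numbers pair the rats. Deviations of same-numbered P and NP rats correlated at 0.10, 0.06 and 0.02, and those of other pairs at -0.32 to 0.36. These values cannot show whether rats were paired. The replicate block called 102 probes, 0 of the 12, and gave -0.02 (Grin1 GE1170840), -0.09 (GE20270), -0.03 (Grin2c GE21864) and -0.18 (Grin2d).

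Between the pairs of P rats the count over all probes, 4030, was 0 with plain subtraction, 2 in the authors' values (3321 with a variance trend) and 2 to 4556 with 1 rat left out; of the 12 probes 0, 0 and 0 to 7 were called. Uncalled probes changed sign: Grin3b had -0.06 without background correction and -0.12 to 0.25 with 1 rat left out, Grin2b GE19832 -0.06 with median scaling and -0.24 to 0.35, and GE1205376 -0.47 to 0.16. Arrays of 4 P and 3 NP rats limit what could be detected.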
